A study of Arabidopsis thaliana with 6 samples.

Results

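The regions described here are the 553 ChIP-seq peaks of the second NTT library that shared no base with any peak of the first NTT library or of the TT1 library. They made up 7.43% of the 7447 peaks of that library (exact 95% interval 6.84 to 8.05%) and were chosen by those peak calls alone. The other 6894 peaks of the library overlapped a peak of both other libraries (5245 peaks), of NTT replicate 1 only (1266 peaks) or of TT1 only (383 peaks). The 3 deposited lists hold 36522 peaks in all.

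NTT and TT1 are WIP proteins, a small plant family of zinc finger transcription factors. The study used *Arabidopsis thaliana* seedlings of the Columbia-0 (Col-0) accession carrying *Dex:NTT-GFP* or *Dex:TT1-GFP*, constructs in which a fusion to green fluorescent protein is switched on by dexamethasone (Dex). Seedlings 7 days old were kept in 1 µM Dex for 8 h, fixed with 1% formaldehyde, and their chromatin was sheared to about 300 bp and precipitated with an anti-GFP antibody. There were 2 ChIP and 2 input libraries of *Dex:NTT-GFP* and 1 ChIP and 1 input library of *Dex:TT1-GFP*, each made from 10 ng of DNA and read as 50-bp single ends. All groups, inputs included, carried a fusion and received Dex, so neither an uninduced line nor a line without a fusion is among them. The driver of the Dex system is placed under the 35S promoter, which is active in most tissues, and whole seedlings were pooled, so the cells in which a site was bound are not known. Both fusions are expressed beyond the cells in which the native genes act. The methods describe biological replicates as separate pools of seedlings, grown on different plates and each given Dex on its own. Each list is a single library and the depth is unknown here, so nothing below carries a replicate error. Intervals cover counting error only.

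In a ChIP experiment DNA bound by the tagged protein, directly or through a partner, is enriched over the input. A peak seen in only 1 of 2 replicate libraries is usually left out of a set of bound sites. NTT is known for its part in the transmitting tract of the pistil and in the founding of the root meristem, and TT1 for pigmentation of the seed coat. Promoter elements that matter below are the G-box CACGTG, read by bHLH and bZIP factors, the ABRE core ACGTG of abscisic acid-responsive promoters, which every G-box contains, and the site II element GGCCCA, bound by TCP factors in promoters of genes for growth and organelle proteins. The GAGA repeat GAGAGAG is bound by BPC factors, and the W-box, TTGACC or TTGACT, by WRKY factors.

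The 12 regions with the highest fold enrichment are shown first, because they carry the strongest signal among the members. The sequences are those of the RefSeq copy of TAIR10.1, 61 bases around the summit, or 30 where the window meets a transcribed untranslated stretch. Letters of any of the 8 motifs searched, overlapping copies included, are in capitals.
WOL (chr2:368939-368999, + strand): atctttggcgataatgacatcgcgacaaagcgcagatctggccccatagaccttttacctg
TIC (chr3:7911291-7911351, + strand): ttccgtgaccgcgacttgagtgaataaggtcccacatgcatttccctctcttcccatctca
AT5G47818 (chr5:19365080-19365140, + strand): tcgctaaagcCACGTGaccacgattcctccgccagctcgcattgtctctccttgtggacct
PLAT3 (chr5:26027874-26027934, + strand): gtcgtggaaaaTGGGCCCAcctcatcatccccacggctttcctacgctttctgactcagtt
AT5G56240 (chr5:22765267-22765327, + strand): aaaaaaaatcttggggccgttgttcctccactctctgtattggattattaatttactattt
AT3G29230 (chr3:11188616-11188645, + strand): tcaaattcgcaggccttattagtagccgaa
TPPH (chr4:18451467-18451527, + strand): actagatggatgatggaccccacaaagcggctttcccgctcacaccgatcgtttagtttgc
AT4G38330 (chr4:17951231-17951291, + strand): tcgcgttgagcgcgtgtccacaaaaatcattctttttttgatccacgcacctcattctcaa
AT1G09907 (chr1:29990768-29990828, + strand): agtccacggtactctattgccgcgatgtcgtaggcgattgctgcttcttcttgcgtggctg
GPAT6 (chr2:15961410-15961470, + strand): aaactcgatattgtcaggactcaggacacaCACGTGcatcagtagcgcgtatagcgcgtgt
AT2G09590 (chr2:18521624-18521684, + strand): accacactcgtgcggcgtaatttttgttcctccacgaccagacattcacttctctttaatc
CKX5 (chr1:28319017-28319077, + strand): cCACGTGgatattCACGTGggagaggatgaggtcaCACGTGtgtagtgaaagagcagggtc
Of these 12 windows, 3 showed a G-box, 1 a site II element and 8 no capitals at all. The motif shares below use wider windows of 201 bp. In those, a G-box was also found at *TPPH*, *AT1G09907* and *AT2G09590*, and a site II element also at *WOL*, *AT5G56240* and *CKX5*. Only *TIC* held none of the 8 motifs there. The window of *CKX5* held 3 copies of the G-box within its 61 bases.

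For the GAGA repeat, the W-box and the site II element, the strongest member with the motif within 100 bp of its summit is shown with the motif in the middle. The site II example was chosen after the values were seen.
AT4G38330, GAGA repeat (chr4:17951139-17951199, + strand): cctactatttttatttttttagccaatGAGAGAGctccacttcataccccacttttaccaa
AT3G29230, W-box (chr3:11188603-11188632, + strand): atctcggttcgGGTCAAattcgcaggcctt
WOL, site II (chr2:369021-369081, + strand): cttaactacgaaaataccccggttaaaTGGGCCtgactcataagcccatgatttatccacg
In *WOL* the site II element lay 82 bp from the summit, and in *AT4G38330* the GAGA repeat 92 bp from it. The strongest member with an ABRE core or a G-box was the one near *AT5G47818*, whose element is in the preceding set.

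The peaks alone were weak and narrow among the peaks of their own library. Their median fold enrichment over local background was 3.46 (range 2.25 to 5.49), against 3.99 (range 2.31 to 8.75) for the other replicate 2 peaks. Among those others the median was 3.60 in peaks shared with TT1 only, 3.72 with replicate 1 only and 4.11 with both. The median −log10 q was 17.0 against 22.50, and the median width 155 bp against 215 bp. The narrowest peak MACS2 gave was 122 bp wide, which held for 19 of 553 peaks alone (3.44%) and 68 of 6894 others (0.986%). When all replicate 2 peaks were divided into quintiles of fold enrichment, the share alone was 15.5% in the weakest quintile, 10.6%, 6.87% and 3.56% in the next ones and 0.604% in the strongest, where 9 of 1490 peaks were alone. In all, 109 peaks alone (19.7%) reached the median fold of the library. Strength and overlap come from the same peak calls, so these values describe the members and are not tested.

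**Figure D1:**
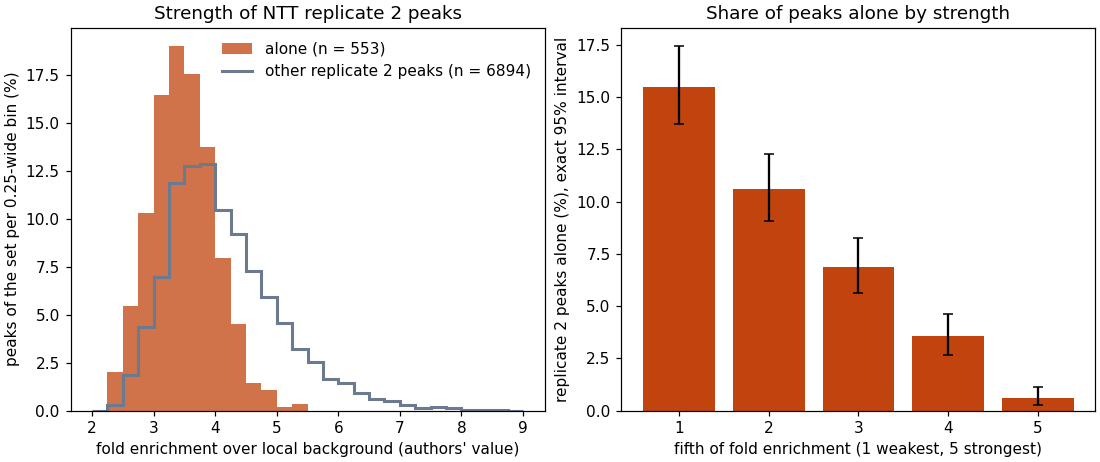
Left, distribution of the authors' fold enrichment (x axis) as the percentage of each set per 0.25-wide bin, for the 553 peaks alone (filled) and the 6894 other NTT replicate 2 peaks (line). Right, percentage of replicate 2 peaks that are alone in each quintile of fold enrichment with exact 95% intervals, which ran from 15.5% in the weakest quintile to 0.604% in the strongest.

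The edge of the rule cut through close neighbours in a few cases only. The member nearest to another library's peak lay 14 bp from a replicate 1 peak, at *AT1G52720* (fold 3.42), followed by members 21 bp away at *AT4G31420* (3.57) and 24 bp away at *AT4G19130* (2.49). Just outside the rule, a peak at *AILP1* (fold 3.23) shared 1 base with each of the other libraries, a peak at *AT1G48280* (3.46) shared 4 bases with TT1, and a peak at *U2.5* (2.99) shared 5 bases with TT1. The median gap of the members was 1582 bp, with 24 closer than 100 bp, 135 (24.4%) closer than 500 bp and 317 (57.3%) closer than 2000 bp. The largest gap was 41630 bp, at *EHD2*. Replicate 1 held the nearer peak for 237 members (42.9%).

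Site II elements and G-boxes were more frequent at the peaks alone, and GAGA repeats and TATA boxes less frequent, than at the other peaks of the same library. These shares were counted in windows of 201 bp, on both strands, and did not enter the rule. A site II element was found in 157 of 553 windows (28.4%, exact interval 24.7 to 32.4%), against 833 of 6894 (12.1%), a difference of 16.3 percentage points (95% Newcombe interval 12.6 to 20.3). The G-box was found in 27.1% against 14.6% (difference 12.5 points, 8.91 to 16.5), and the ABRE core in 45.2% against 34.2% (10.96 points, 6.71 to 15.3). An ABRE core without a G-box was found in 18.1% of windows alone and 19.7% of the others, a difference whose interval holds 0 (−4.72 to 1.96 points). The GCC-box GCCGCC, read by ERF factors, stood at 13.2% against 8.25% (4.95 points, 2.29 to 8.09).

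The GAGA repeat showed the opposite difference, with 86 windows alone (15.6%) against 1861 others (27.0%), −11.4 points (−14.4 to −8.03). The W-box stood at 21.9% against 27.6% (−5.72 points, −9.14 to −1.94), a difference that was −1.33 points (−3.98 to 1.81) within 50 bp of the summit. The TATA core TATAAA was found in 12.7% against 24.0% (−11.3 points, −14.02 to −8.12). The telo-box AAACCCTA, common at promoters of translation genes, was found in 3.44% against 3.55%. Around the annotated starts of all 27444 protein-coding genes, windows of the same length held a site II element in 11.6%, a G-box in 5.75%, an ABRE core in 19.9%, a GCC-box in 2.84%, a GAGA repeat in 14.8%, a W-box in 21.8%, a TATA core in 37.5% and a telo-box in 6.34%. The peaks alone stood above these starts for site II, G-box, ABRE core and GCC-box, and below them for the TATA core and the telo-box. They were within 1 point of them for the GAGA repeat and the W-box. The start windows had a mean GC of 34.5%, against 43.9% for the peaks alone, and were not matched for it.

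Over all 2080 words of 6 bases, each counted with its reverse complement, the site II word and then the G-box had the largest excess at the peaks alone. Next came ATGGGC (21.2% of windows alone, 10.0% of the others) and AGCCCA (20.6% and 10.0%), which overlap the site II word or resemble it. At the other end stood AGAAGA, with 27.1% alone and 39.6% of the others, and AGAGAG, with 27.7% and 39.9%. These words were ranked after their values were known and are given as a description.

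Site II, the G-box, the ABRE core, the GCC-box and the GAGA repeat were more frequent near the summits than 500 bp away, at the peaks alone and at the others. Within 50 bp of the summit, 14.8% of the peaks alone held a site II element, against 1.63% of windows of the same length placed 500 bp to either side of the same summits. For the G-box these shares were 17.9% and 1.90%, for the ABRE core 32.4% and 7.69%, for the GCC-box 8.68% and 1.45% and for the GAGA repeat 8.50% and 3.89%. The W-box differed little between summit (12.7%) and sides (10.8%), and the TATA core was rarer at the summit (6.87%) than beside it (14.01%). In windows with the motif, the median distance from the summit was 26 bp for the ABRE core, 31.5 bp for the G-box and 45.5 bp for site II. For the W-box it was 39.5 bp and for the TATA core 44.5 bp, so site II lay no closer to the summit than these. More than 1 copy, counted without overlap, was also more common: 56 peaks alone (10.13%) held 2 or more site II elements, against 2.52% of the others (difference 7.60 points, 5.32 to 10.4), and 35 (6.33%) held 2 or more G-boxes, against 2.87%. Site II and G-box were found together in 38 peaks alone (6.87%), against 1.84% of the others.

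The motif shares differed with the libraries in which a replicate 2 peak was shared. The G-box stood at 27.1% in the peaks alone, against 28.7% in the replicate 2 peaks shared with TT1 only, 9.80% in those shared with replicate 1 only and 14.7% in those found in all 3 libraries. The GAGA repeat stood at 15.6%, against 11.5%, 36.7% and 25.8% in the same order of sets. Site II stood at 28.4%, against 22.2%, 15.5% and 10.5%. Against the peaks shared with TT1 only, the difference was 6.20 points for site II (0.493 to 11.7), −1.60 points for the G-box (−7.50 to 4.18) and 4.06 points for the GAGA repeat (−0.473 to 8.37), so the last 2 intervals hold 0. Against the peaks shared with replicate 1 only, all 3 intervals left out 0, with 12.9 points for site II, 17.3 for the G-box and −21.2 for the GAGA repeat. When replicate 1 was not used, so that a peak was alone if TT1 lacked it, the difference became 5.49 points for the GAGA repeat (3.12 to 7.91) and −0.591 points for the G-box, whereas for site II it was 8.09 points (6.14 to 10.13).

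**Figure D2:**
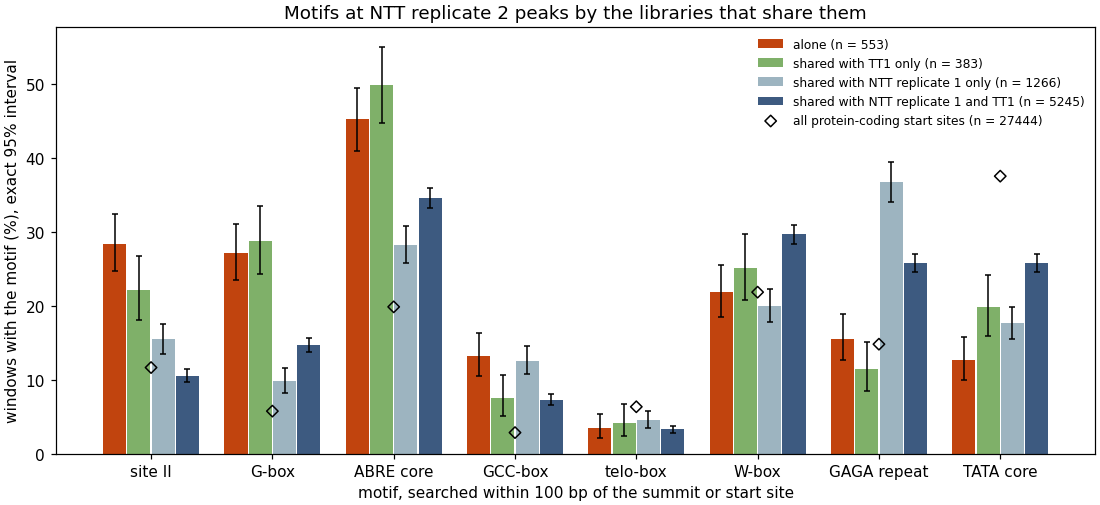
Percentage of 201-bp windows with each of 8 motifs (y axis, exact 95% intervals) for the NTT replicate 2 peaks alone and for those shared with TT1 only, with replicate 1 only and with both, with all protein-coding start sites as diamonds. Site II falls across the 4 sets, at 28.4, 22.2, 15.5 and 10.5%, and the GAGA repeat is highest, at 36.7%, in peaks shared with replicate 1 only.

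GC content moved with these differences. The windows of the peaks alone had a mean GC of 43.9 ± 4.74% (SD, 553 windows), against 39.8 ± 5.52% for the others, and the lists as wholes had 40.1% in replicate 2, 37.1% in replicate 1 and 36.5% in TT1. Replicate 2 peaks shared with TT1 only had 42.3%, those shared with replicate 1 only 41.99% and those shared with both 39.1%. Within windows of like GC the site II difference remained: 26.9% against 8.76% under 40% GC, 29.5% against 15.7% from 40 to 45%, and 28.1% against 16.0% at 45% and over, with every interval above 0. The GAGA repeat was lower at the peaks alone in each of the 3 ranges, by 11.4, 18.4 and 12.7 points. The G-box interval was above 0 in the lower ranges (12.7 and 9.62 points) and held 0 at 45% and over (4.26 points, −1.62 to 10.8). The ABRE core interval also held 0 at 45% and over (0.845 points, −6.00 to 7.87), as did those of the W-box below 45%. For the GCC-box all 3 intervals held 0, and for the TATA core only the interval under 40% GC left it out. In the 2 weakest quintiles of fold enrichment the site II shares were 27.0% against 12.03% and the G-box shares 25.7% against 12.2%, although the peaks alone were not matched to the others in strength there. The GC ranges were added after the data had been seen.

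**Figure D3:**
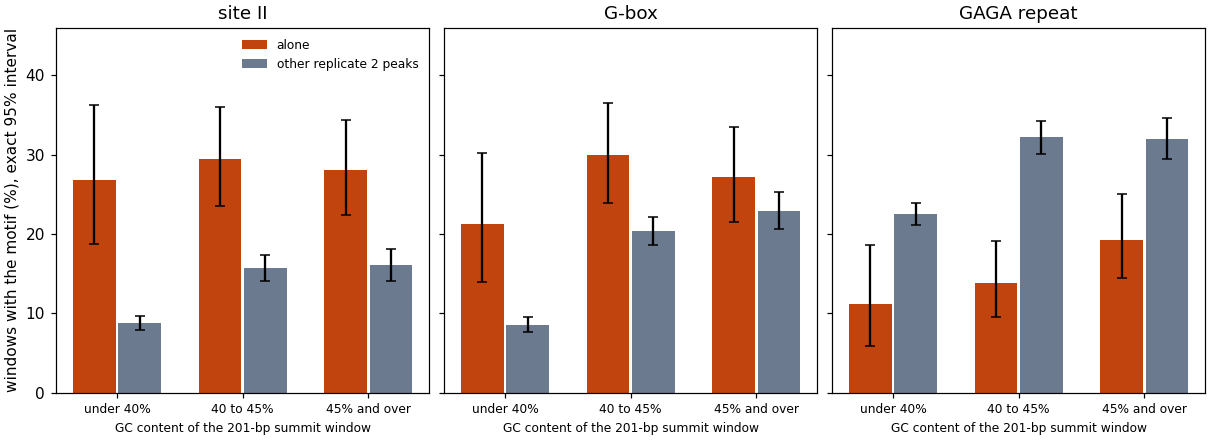
Percentage of windows (y axis, exact 95% intervals) with a site II element, a G-box or a GAGA repeat in 3 ranges of GC content (x axis), for the peaks alone (left bar) and the other NTT replicate 2 peaks (right bar). Site II is higher at the peaks alone in all 3 ranges, by 18.1, 13.8 and 12.05 points, and the GAGA repeat is lower.

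The peaks alone lay at promoters more often and in intergenic sequence less often than the other peaks. By summit, 316 of 553 (57.1%) were within 1000 bp upstream of a start site, against 49.2% of the others (difference 7.91 points, 3.59 to 12.1), and 52 (9.40%) were intergenic, against 18.0% (−8.58 points, −10.9 to −5.72). Exons held 32.0% against 31.4%, and introns 1.45% against 1.33%. When replicate 1 was not used the promoter difference was −0.378 points (−3.02 to 2.26). The promoter share was close to the 56.7% of peaks shared with TT1 only (difference 0.485 points, −5.92 to 6.93) and the intergenic share to the 8.77% of peaks shared with replicate 1 only (0.636 points, −2.10 to 3.71). Within exons the parts differed: 83 summits alone lay in coding sequence (15.01%), against 8.02% of the others (6.99 points, 4.17 to 10.3), and 71 in 5′ untranslated exon (12.8%), against 19.5% (−6.64 points, −9.35 to −3.46). Against the peaks shared with replicate 1 only, of which 14.8% lay in coding sequence, the coding difference was 0.238 points (−3.19 to 3.95), and against those shared with TT1 only, of which 10.97% did, it was 4.04 points (−0.419 to 8.28), so both intervals hold 0. The 83 coding summits had a median GC of 48.8%, against 43.3% for the remaining peaks alone, and a median fold of 3.27 against 3.49.

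Summits gathered at start sites in both sets, and the peaks alone had the larger share just before the start. By signed position, negative upstream, the median was 6 bp from the nearest start for the peaks alone (quartiles −134 and 151). For the others it was 8 bp (quartiles −343 and 139.8). Upstream and downstream summits offset each other in these medians, so they do not measure closeness. Within 200 bp of a start lay 58.6% of the peaks alone, against 51.0% of the others. Of the peaks alone, 157 (28.4%) had their summit in the 200 bp before the start, against 1282 others (18.6%). Start sites of protein-coding genes on both strands were present within 500 bp of 76 summits alone (13.7%), against 6.76% of the others (6.98 points, 4.29 to 10.2). The same held for 11.1% of the peaks shared with replicate 1 only, where the interval of the difference holds 0 (2.61 points, −0.603 to 6.12). The site II difference was found near starts (29.6% against 13.4%) and away from them (26.6% against 10.7%). It was found for promoter summits (32.9% against 14.7%), exon summits (21.5% against 8.76%) and intergenic summits (28.8% against 11.05%), whereas none of the 8 intron summits alone had the element. The chromosomes took similar shares, and for each of the 5 the interval of the difference held 0.

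**Figure D4:**
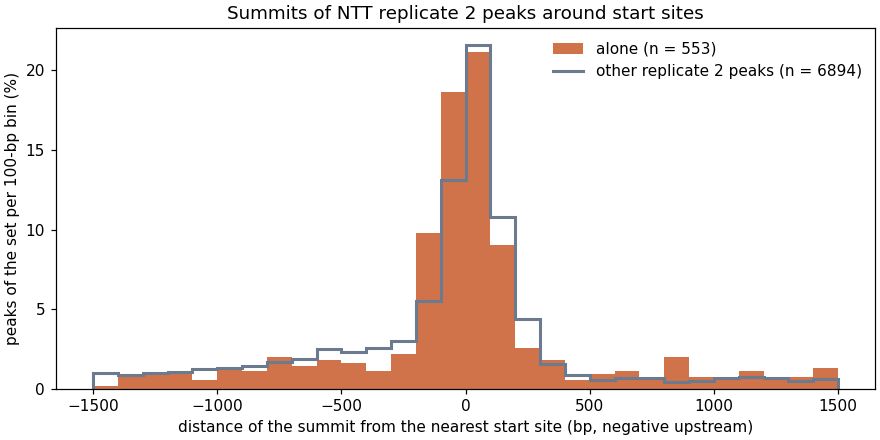
Percentage of each set per 100-bp bin (y axis) by the distance of the summit from the nearest annotated start site (x axis, negative upstream), for the 553 peaks alone (filled) and the 6894 other NTT replicate 2 peaks (line). In the 200 bp before the start lie 28.4% of the peaks alone, against 18.6% of the others.

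The NTT gene itself carried 2 of the peaks alone, each inside a coding exon. *NTT* (AT3G57670, chromosome 3, 21370757 to 21373591, + strand, TAIR10.1) has 2 exons, whose coding parts are 699 and 453 bp long. The peak over exon 1 (21370969 to 21371577) was 609 bp wide, the widest of all 553 members before one of 599 bp, with fold 2.68 and −log10 q 23.7, and all 609 bases were coding. The peak over exon 2 (21372709 to 21373010) was 302 bp wide, with fold 2.25, the lowest of the whole replicate 2 list, and −log10 q 16.6, and its 302 bases were all coding as well. No replicate 2 peak touched the intron between them or the untranslated ends. The 29 peaks alone with a fold of at most that of the exon 1 peak had a median −log10 q of 9.90, and no other of them reached 23.7. Neither NTT replicate 1 nor TT1 had a peak over the gene, and their nearest peaks lay 3536 and 3461 bp before it (folds 4.56 and 4.93). *TT1*, the gene of the other fusion, had no peak over it in any of the 3 libraries. The *Dex:NTT-GFP* plants also carry the NTT coding sequence in the construct, and reads of that copy and of the native exons cannot be told apart in a peak list. These peaks were singled out after their values were seen, apart from the exon 1 peak, which the rule for named genes includes.

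**Figure D5:**
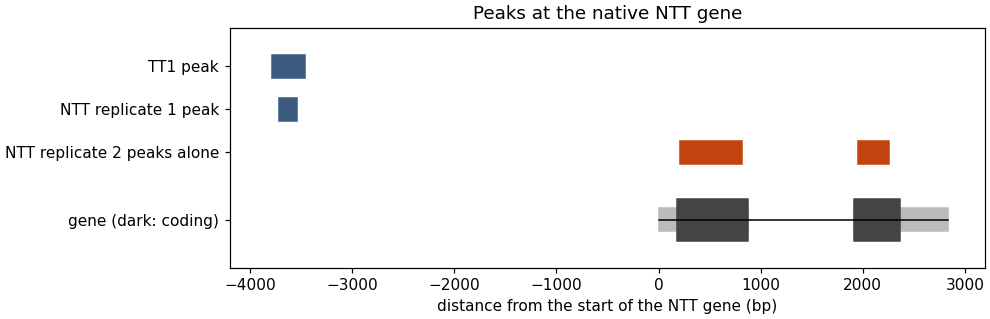
The native *NTT* gene with coding parts dark and untranslated parts light, and the nearest or overlapping peaks of each library above it (x axis, distance from the gene's start in bp). Both replicate 2 peaks, 609 and 302 bp wide, lie within coding sequence, and the replicate 1 and TT1 peaks lie 3536 and 3461 bp before the gene.

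Of the 12 strongest members, 9 had their summit more than 200 bp from the nearest start site. The highest fold, 5.49, was reached at −612 bp from *WOL*, which encodes a cytokinin receptor kinase, with a replicate 1 peak 635 bp and a TT1 peak 660 bp away. Next came a peak (fold 5.36) at −1584 bp from *TIC*, a regulator of the circadian clock, outside the window for a target gene. Members followed near *AT5G47818* (5.02), *PLAT3* (4.88, at −2171 bp), *AT5G56240* (4.88, at −710 bp), the tetratricopeptide repeat gene *AT3G29230* (4.86, at +60 bp), *TPPH*, a trehalose phosphate phosphatase gene (4.86, at −192 bp), and *AT4G38330* (4.81, at −63 bp). The twelfth (4.65) lay at −672 bp from *CKX5*, whose enzyme degrades cytokinin, with a TT1 peak 100 bp and a replicate 1 peak 192 bp away. Peaks with folds of 4.79 and 4.69 lay at −1907 bp from the noncoding *AT1G09907* and at −1741 bp from the noncoding *AT2G09590*. The summit near *AT1G09907* lay in coding sequence, which belongs to another gene. A fold of 4.72 was reached at −5688 bp from *GPAT6*, for an acyltransferase of cutin synthesis. *WOL*, *AT5G56240* and *CKX5* were target genes of both other libraries through separate peaks, whereas *AT5G47818*, *AT3G29230* and *TPPH* were targets of neither. Of the 9 members in the strongest quintile, the 4 farthest from any other library's peak were those at *AT3G29230* (2195 bp), *TPPH* (2075 bp), *PLAT3* (1406 bp) and *AT4G38330* (1317 bp).

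The summit lay from −1500 to +1000 bp of the nearest start site for 467 of the 553 peaks alone (84.4%), giving 464 target genes. Of these 420 are protein-coding, which is 1.53% of the 27444 nuclear protein-coding genes, against 18.0% that were targets of any replicate 2 peak and 32.4% that were targets of replicate 1. Although the regions were not shared, 113 target genes (24.4%) were targets of another library through a different peak, 98 of replicate 1, 82 of TT1 and 67 of both. A further replicate 2 peak that was shared with another library was present at 45 target genes. The remaining 351 genes (75.6%) had no other target peak. They make up 351 of the 406 replicate 2 target genes that neither other library had, a total set by the same lists. Only *AT3G60935* and *AT5G64735* were targets of more than 1 peak alone. *AT3G60935*, a pseudogene on chromosome 3, carried 3 of them (folds 4.32, 4.29 and 3.65) among 6 replicate 2 peaks, against 1 replicate 1 peak and 2 TT1 peaks in the same 3 kb. *AT5G64735*, a histidine tRNA gene, had 2 (3.40 and 3.37).

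Among light-harvesting and photosystem genes, 3 of 41 (7.32%) were targets of a peak alone, beside the 1.53% of all protein-coding genes. They were *CAB2* (fold 4.26, summit at −67 bp), which encodes a chlorophyll-binding antenna protein of photosystem II, and *Lhca5* (3.49, at +62 bp) and *Lhca6* (3.35, at +811 bp), minor antenna proteins of photosystem I. None of these genes had a target peak in another library, and the gaps were 12660, 1992 and 5699 bp. A count of 3 gives no more than a description of the list, and 14 of its 41 genes were targets of any replicate 2 peak. Among TCP and SPL factors 2 of 34 were targets (5.88%), both TCP genes of the CIN class that limits leaf cell proliferation. They were *TCP5* (4.30, at −822 bp) and *TCP10* (2.88, in coding sequence at +577 bp), again too few for more than a description. *TCP10* was also a target of replicate 1, 263 bp away.

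Zinc finger genes of the C2H2 and B-box classes gave 4 of 118 targets (3.39%), beside the 1.53% of all protein-coding genes. Counts as small as those in this paragraph give no more than a description. Beside *NTT* these were *BBX8* (4.03, at −9 bp), *BBX14* (2.80, at −86 bp) and *SE* (2.51, at +148 bp), whose product SERRATE acts in microRNA processing. The bHLH list gave 2 of 133, *AT2G31220* (4.39) and *MYC3* (3.56, at +123 bp), a factor of the jasmonate response and the only 1 of 28 jasmonate genes. Matched by name, this list did not hold the bHLH gene *BEE1*, also a target of a peak alone (4.37, at −197 bp). The bZIP list gave 2 of 69, *BZIP53* (3.98, at −169 bp) and *AT5G62900* (2.998). In the abscisic acid list, 2 of 48 were targets (4.17%), the receptor gene *PYR1* (3.33, at +60 bp) and the kinase gene *SNRK2.3* (2.98, at −281 bp). *PYR1* was also a target of TT1 and *SNRK2.3* of replicate 1. *MYB99* was the single MYB gene of 154 and *WOX8* the single homeobox gene of 106.

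Calcium sensors and calmodulin-binding proteins gave 4 of 174 (2.30%), *AT4G25800* (4.43), the touch-induced calmodulin-like gene *TCH3* (4.30, at −67 bp), the kinase gene *CIPK20* (3.99) and *AT5G15430* (3.04). The MAP kinase cascade gave 2 of 51 (3.92%), *AT3G58640* (4.23, at +8 bp) and *MAPKKK15* (3.99, at −993 bp). Beside the 1.53% of all protein-coding genes, these 2 small counts are a description only. Ubiquitin and F-box genes, the largest protein-coding list, gave 22 of 1308 (1.68%), led by *AT2G26030* (4.56), *AT1G11970* (4.21), *AT1G76920* (4.10) and *AT5G63520* (3.97). The RNA processing list gave 8 of 398 (2.01%), with *AT1G60000* (3.71), *U1-70K* of the spliceosome (3.51, at −6 bp), *AT2G17240* (3.49) and *AT2G28480* (3.35) as its strongest. Matched by name, it did not hold the splicing factor genes *U2AF35B* (3.87) and *RSZ21* (3.835), which were also targets of peaks alone. The shares of the last 2 lists were close to that of all protein-coding genes.

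The lists of genes for translation and protein folding stood near the 1.53% of all protein-coding genes. Ribosomal protein genes had 5 of 344 (1.45%), among them *AT4G00810* (3.74, at −59 bp), whose nearest peak in another library was 10684 bp away, *AT1G23410* (3.30), *AT1G16740* (3.09) and *AT2G21290* (3.06). The translation factor list had 2 of 126 (1.59%), *AT5G44320* (3.70), a subunit of initiation factor eIF3, and *AT5G10630* (3.66). Its name matching left out the initiation factor gene *EIF4B2*, also a target of a peak alone (3.78, at +109 bp). Heat shock proteins and chaperones had 3 of 290 (1.03%), all of the DnaJ type, *AT4G10130* (3.52), *AT5G17840* (2.998) and *AT5G18140* (2.35). Tubulin and actin genes had 1 of 38, *TUB7*. Transporters had 2 of 537 (0.372%), *AT5G14880* (3.51), a potassium transporter gene, and *KEA1* (3.06, at +1 bp), for a potassium antiporter of the chloroplast envelope. Expansin, XTH and pectin genes had 2 of 315 (0.635%), *AT3G05910* (4.34) and *AT1G02816* (2.78).

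Several lists held no target of a peak alone although the library had peaks at their genes. None of 69 WRKY genes was one, with 27 targets of any replicate 2 peak, none of 107 ERF and DREB genes (32), none of 106 NAC genes (23), none of 77 auxin genes (24), none of 30 ethylene genes (16), none of 46 brassinosteroid and gibberellin genes (12) and none of 376 receptor-like kinase genes (87). The same held for 52 histone genes (5), 326 microRNA genes (25) and 287 snoRNA genes (4). The lists were matched by symbol or product name and can miss genes of a class. *BEE1*, named for enhanced expression by brassinosteroid, lay outside the brassinosteroid list and was a target of a peak alone (4.37, at −197 bp). By the rule, a replicate 2 peak that overlaps a replicate 1 peak cannot be alone. From WRKY to receptor-like kinase genes, 41.51% (NAC) to 75.36% (WRKY) of each list were replicate 1 targets, against 32.4% of all protein-coding genes. The share was 21.15% for histone genes. It was 67.86% for jasmonate and 60.78% for MAP kinase genes, lists that did hold targets of peaks alone. Whether replicate 1 coverage accounts for the zeros was not tested. At a background of 1.53% a list of under 100 genes would hold a target or 2 at most on average. The zeros of the short lists are therefore not set apart from it. Those of the 107 ERF and DREB, 106 NAC and 376 receptor-like kinase genes were not tested against it. The 1.53% covers protein-coding genes only and gives no background for the noncoding lists here. Over all 37899 nuclear genes 464 were targets of a peak alone, 420 of them among the 27444 protein-coding genes. Among 625 tRNA genes 9 were targets (1.44%), led by *AT5G15815* for tRNA-Asp (4.00), *AT5G46325* and *AT3G10015* for tRNA-Leu (3.88 and 3.58) and *AT1G80250* for tRNA-Trp (3.52). A tRNA start was the nearest for 10 peaks alone (1.81%), against 0.711% of the others (1.10 points, 0.243 to 2.60), and a pseudogene for 10 (1.81%), against 0.783%. Genes of long noncoding RNA gave 27 of 3780 (0.714%), led by *AT1G04817* (4.58), *AT1G06697* (4.43), *AT5G18245* (4.33) and *AT2G06935* (4.14).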

How the data were processed

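Peaks were deposited as 1 list for each of the 3 ChIP libraries, called singly and not pooled and the input libraries were not analysed here. According to the submitters' processing notes and the methods, the authors checked reads with FastQC, mapped them to TAIR10 with BWA, handled alignments with SAMtools and Picard, and called peaks with MACS2 2.1.2. The deposited score is the authors' 10 times −log10 q without decimals, as checked for 36521 of 36522 peaks. Fold enrichment was deposited by the authors as a ratio, ChIP pileup over the local background that MACS2 estimated. Significance was deposited as −log10 p-values and −log10 q-values. Depth is not given in the sources used here, so values were compared within a library only.

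Gene models came from RefSeq TAIR10.1 (37899 nuclear genes, 51778 start sites), and no peak ended beyond its chromosome. A peak was alone when it shared no base with any peak of the other lists. Its target gene was that of the start site nearest to the summit, where the summit lay from −1500 to +1000 bp of that start. Summits were assigned to promoter (1000 bp upstream), exon, intron or intergenic, in that order. Motifs were searched in 100 bp to either side of the summit. Shares have exact (Clopper-Pearson) and differences Newcombe 95% intervals, which cover counting error only; no p-values were computed. Functions were tested on simulated data. Python 3.11.15, numpy 2.4.6, pandas 2.3.3 and scipy 1.17.1 were used.

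The members, lists and rules were chosen with earlier results of these data known, and name matching of the lists was corrected after matches were seen. Lists matched by symbol or product name do not hold every gene of a class, so their counts apply to the lists only. Named are the 12 strongest members, up to 4 of each list with 2 or more targets, targets of 2 or more members, the 4 most isolated of the strongest quintile and 3 on each side of the rule; a single list member, the largest gap, and the second NTT peak were named after their values were seen.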

Additional observations from a re-analysis of the deposited data

How the results depend on the processing

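The count of 553 peaks alone was within 1.5 times of itself when gaps under 100 or 500 bp counted as shared or when 50% coverage was asked for. It was 139 with a −log10 q of at least 20 in replicate 2, 171 with that minimum in all 3 lists, 1819 without NTT replicate 1 and 936 without TT1. The 464 target genes became 117 at the higher q in replicate 2, 1582 without replicate 1 and 756 without TT1, and the median fold was 4.08 at the higher q. Leaving out NTT replicate 2 leaves no members.

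Without replicate 1 the set is mostly made of peaks shared with it, and the differences in percentage points were −0.378 for promoters, −0.904 for introns, 5.49 for the GAGA repeat, −0.591 for the G-box, −2.24 for the ABRE core and 0.838 for the telo-box. Site II kept its direction and its side of 0 in all 12 alternatives (8.09 to 18.1 points). The exon difference, whose interval holds 0, was −2.48 at the higher q and −2.90 without TT1. The intron difference, also around 0, was −0.155 with gaps under 500 bp as shared, −0.706 in the 2 weakest quintiles and −0.0909 by peak center. That of the telo-box was 0.299 with gaps under 500 bp as shared, 0.222 without TT1, 1.02 for summits over 200 bp from a start site and 0.803 under 40% GC. At 45% GC and over, the G-box difference was 4.26, the TATA core difference −3.17 and the GCC-box difference −1.69, and from 40 to 45% the TATA core difference was −1.40; the intervals of these 4 hold 0. So did that of the ABRE core at 45% GC and over (0.845). The W-box difference had an interval that holds 0 at the higher q (−7.32), within 50 bp of the summit (−1.33), within 200 bp of a start site (−4.09), under 40% GC (−2.90) and from 40 to 45% (−1.71), and the GCC-box difference at the higher q (3.42), over 200 bp from a start (2.89), under 40% GC (1.64) and from 40 to 45% (2.88). The splits by GC and by distance to a start were chosen after seeing the data, and the cause of these changes was not tested. No paired analysis was possible because each ChIP list stands for a single library and the numbered inputs have no peak list here. Depth is unknown, so a peak missing from a list may be a region that this list could not show at its depth.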
